A study of Saccharomyces cerevisiae with 8 samples.

Results

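Central carbon metabolism downstream of pyruvate was surveyed in wild yeast through 33 genes of the tricarboxylic acid (TCA) cycle, the glyoxylate cycle, the pyruvate dehydrogenase complex, the enzymes that refill the cycle, 2 mitochondrial carriers and gluconeogenesis. The genes were taken by systematic name from a fixed list, and all 33 were present among the 5797 genes of the deposited tables. RNA-seq was carried out on homozygous diploid isolates of *Saccharomyces cerevisiae*, 3 from the Malaysian population (the isolates UWOPS03.461.4 and UWOPS05.217.3, together with UWOPS05.227.2) and 2 from the wine/European population (BC187 and RM11-1), to ask which genes differ in expression between the populations. It was also carried out on 3 diploid Malaysian × wine/European hybrids, YHL058 (RM11-1b mated with UWOPS03.461.4), YHL063 (BC187 mated with UWOPS03.461.4) and YHL065 (BC187 mated with UWOPS05.217.3), to ask which genes differ between the alleles inside 1 cell. The sample labels give all strains as *MATa/alpha* and *HO*, the gene for mating-type switching, except RM11-1, which was made from RM11-1a and RM11-1b and is labelled *ura3* and *ho::kanMX*. The study's strain list adds that RM11-1 is heterozygous for *lys2* and *leu2* and that YHL058 is heterozygous for the *ho* deletion. Cultures grew in YPD, a rich medium with glucose, at 30° to an OD600 of 0.65 to 0.72, with 1 culture and 1 library of each strain. The spread within a population therefore includes differences between strains, and the 3 hybrids share parents with one another.

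The TCA cycle oxidizes acetyl-CoA in the mitochondrion. Pyruvate dehydrogenase feeds it from pyruvate, and pyruvate carboxylase replaces the oxaloacetate that biosynthesis draws off. The glyoxylate cycle bypasses the decarboxylating steps and so lets cells grow on acetate or ethanol, and glucose in the medium represses much of it, together with gluconeogenesis. In laboratory yeast the retrograde proteins Rtg1p and Rtg3p bind the motif GTCAC at *CIT2* and at the genes for the first steps of the cycle, the Hap2/3/4/5 complex binds CCAAT at respiratory genes, and Cat8p and Sip4p act on gluconeogenic genes through the carbon source-responsive element.

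The promoters of 3 genes on which the results turn are shown for orientation: *ACO1* and *LPD1*, which passed the test between alleles, and *CIT2*, whose parental and allelic differences had opposite signs. Each run holds the 250 bases before the start codon and the first 50 bases of the coding sequence, 5′ to 3′ on the coding strand, from RefSeq's S288C assembly R64. It is the reference strain's sequence and not that of the isolates. Capitals mark GTCAC and CCAAT on either strand, so that ATTGG and GTGAC are their reverse complements. All 3 genes lie on the minus strand.
*CIT2* (chrIII:122279-122578): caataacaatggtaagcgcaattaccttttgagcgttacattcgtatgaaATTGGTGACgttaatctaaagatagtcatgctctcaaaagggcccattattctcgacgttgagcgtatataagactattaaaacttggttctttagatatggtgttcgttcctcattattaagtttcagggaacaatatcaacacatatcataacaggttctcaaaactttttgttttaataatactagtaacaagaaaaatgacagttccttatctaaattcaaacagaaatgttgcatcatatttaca
*ACO1* (chrXII:737499-737798): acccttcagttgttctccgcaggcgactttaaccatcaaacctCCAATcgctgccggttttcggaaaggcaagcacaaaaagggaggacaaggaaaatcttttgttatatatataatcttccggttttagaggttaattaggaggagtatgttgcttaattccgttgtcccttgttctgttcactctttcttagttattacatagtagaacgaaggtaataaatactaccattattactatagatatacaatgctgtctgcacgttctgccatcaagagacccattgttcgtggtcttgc
*LPD1* (chrVI:103078-103377): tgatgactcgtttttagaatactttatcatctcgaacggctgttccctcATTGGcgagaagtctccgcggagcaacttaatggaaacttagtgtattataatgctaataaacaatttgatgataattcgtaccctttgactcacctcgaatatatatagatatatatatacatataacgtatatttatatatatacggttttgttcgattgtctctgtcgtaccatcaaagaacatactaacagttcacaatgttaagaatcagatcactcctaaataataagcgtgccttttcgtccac
In *CIT2* a CCAAT and a GTCAC, both on the minus strand, overlapped by 1 base. *ACO1* and *LPD1* each held 1 CCAAT and no GTCAC. *CIT1*, *IDH1* and *IDH2* also had no GTCAC in this window, and sequence further upstream was not searched. Across windows of the same 300 bases, GTCAC was found in 30.3% of the 33 genes and in 26.4% of 6001 promoters, and CCAAT in 48.5% and 43.3%. A carbon source-responsive element, searched as CC and CCG separated by 6 bases, was found in 9.09% of the 33 genes and in 10.2% of all promoters. These shares differed little from those of all promoters, and a match describes the letters and not a bound site.

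Expression values were the authors' normalized read counts, which had the same upper quartile in each library of a table (6442 in the parents and 2010 per allele in the hybrids), so they do not carry the depth of a library. The study lists uniquely mapped reads for each library, with the fewest in YHL065, and those totals were not used here. Column sums ranged from 63253487 to 67038479 in the parents and from 18739636 to 20966132 per allele in the hybrids. *HO* was listed at 0 in RM11-1, the strain labelled *ho::kanMX*, and at 51 to 127 in the other 4 parents. *URA3* did not follow its label, being listed at 101 in RM11-1 and at 21 to 32 in the parents whose labels name no *ura3*. *MFA1* and *STE2*, which are transcribed mainly in haploid cells of 1 mating type, were at 272 to 373 and at 230 to 442, against medians over all genes of 2496 to 2707. These counts were not divided by gene length, so they do not compare levels between genes of unequal length. Because only reads that carry a difference between the parents were counted in hybrids, levels in hybrids are not comparable between genes or with the parents, and the 2 tables were normalized separately. The labels name 2 Illumina sequencers without saying which library ran on which.

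The populations differed in 6 genes, in both directions. Malaysian strains had higher expression of *PYC1* (YGL062W), a pyruvate carboxylase, and of *LPD1* (YFL018C) and *LAT1* (YNL071W), which encode the dihydrolipoamide dehydrogenase and the acetyltransferase of pyruvate dehydrogenase. Among the genes they expressed at a lower level were *CIT2* (YCR005C), the peroxisomal citrate synthase, and *ICL1* (YER065C), the isocitrate lyase that opens the glyoxylate cycle. Of these 5 named genes, the Malaysian level ranged from 2.01-fold lower in *CIT2* to 2.86-fold higher in *PYC1*. In bulk cultures, fewer expressing cells and less RNA per cell cannot be told apart. These 6 of 33 genes (18.2%) compare with 10.9% of the 5792 genes tested with limma at an adjusted *P* under 0.05, and they split 3 and 3, against 5.06% of all genes higher and 5.82% lower in Malaysian strains.

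Among the genes of the TCA cycle itself, *ACO1* (YLR304C), the main mitochondrial aconitase and an iron-sulfur enzyme, did not pass between the populations. Its normalized read counts were 139931 in UWOPS03.461.4, 84792 in UWOPS05.217.3 and 109787 in UWOPS05.227.2, the order kept for Malaysian strains throughout, and 56481 and 153611 in BC187 and RM11-1. The 2 wine/European strains lay at opposite ends of the range, and the log2 difference, Malaysian minus wine/European on log2(value + 1), was 0.23 (SE 0.46, adjusted *P* = 0.765).

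Most TCA genes leaned to the Malaysian side without passing the test in that direction. Of the 12 genes, 11 had a log2 difference above 0, as did 53.2% of all genes tested, and the median was 0.45 against 0.03 over all genes. These 12 leave out the succinate dehydrogenase genes. Of those, *SDH1* (-0.51) and *SDH3* (-0.44) were below 0, and *SDH2* (0.09) and *SDH4* (0.20) were above. None of the 12 passed in the Malaysian direction after adjustment, and 4 did so at an unadjusted *P* under 0.05, as did 915 of the 5792 genes tested. *KGD1* (YIL125W), which encodes the first subunit of alpha-ketoglutarate dehydrogenase, was the largest of these. It was at 10479, 8028 and 8694 in the Malaysian strains and at 3415 and 7029 in BC187 and RM11-1. Its groups did not overlap, with a log2 difference of 0.88 (SE 0.32, adjusted *P* = 0.137). *LSC2* (YGR244C), a subunit of succinyl-CoA ligase, followed with 7889, 5810 and 7573 against 3004 and 5176 (log2 difference 0.83, SE 0.27, adjusted *P* = 0.109). The groups did not overlap in *IDH1* (0.49), *KGD2* (0.50) and *LSC1* (0.59) either, whereas they overlapped in *CIT1* (0.51), *CIT3* (0.11), *IDH2* (0.41), *FUM1* (0.08) and *MDH1* (0.01). *CIT1*, the mitochondrial citrate synthase, ranged from 3785 in BC187 to 11484 in UWOPS03.461.4, and RM11-1, at 10238, lay among the Malaysian strains. Without BC187 the log2 differences of *CIT1* (-0.21), *ACO1* (-0.49), *FUM1* (-0.07) and *MDH1* (-0.20) were below 0, whereas the remaining TCA genes kept their sign.

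In pyruvate dehydrogenase, 2 of the 5 genes were higher in Malaysian strains and none passed in the other direction, against 5.06% and 5.82% of all genes, with a median log2 difference of 0.48. *LPD1*, whose product is shared with alpha-ketoglutarate dehydrogenase and the glycine decarboxylase complex, was at 16270, 14041 and 13483 in Malaysian strains and at 8427 and 9517 in BC187 and RM11-1 (log2 difference 0.70, SE 0.13, adjusted *P* = 0.0315). *LAT1* was at 18235, 20070 and 16955 against 12034 and 12578 (0.58, SE 0.12, adjusted *P* = 0.0364). In neither gene did the populations overlap, and the wine/European strains lay close to each other. *PDA1*, the E1 alpha subunit, had 87412, 84512 and 83918 against 58674 and 63562, a separation of the same kind that just missed the threshold (0.48, SE 0.12, adjusted *P* = 0.0576). *PDX1*, which encodes the protein that anchors the dehydrogenase, had a difference of 0.24 (adjusted *P* = 0.285). *PDB1*, the E1 beta subunit and partner of *PDA1*, had one of -0.05 (adjusted *P* = 0.806). Per kilobase of coding sequence, *PDA1* had the highest mean normalized count of the 33 genes (59870) and *ACO1* the second highest (46607), whereas *PCK1* had the lowest (53.2).

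The glyoxylate and extramitochondrial enzymes leaned the other way. Of these 7 genes, 6 had a log2 difference below 0, as did 2710 of the 5792 genes tested. The median of the 7 was -0.90. As lower in Malaysian strains 2 of the 7 passed, and none as higher, against 5.82% and 5.06% of all genes. At an unadjusted *P* under 0.05 these counts were 4 and 0, against 850 and 915 of the 5792 genes tested. *CIT2* was at 1127, 899 and 1223 in Malaysian strains and at 1757 and 2662 in BC187 and RM11-1 (log2 difference -1.01, SE 0.23, adjusted *P* = 0.0497). *ICL1* was at 842, 734 and 716 against 1115 and 1276 (-0.65, SE 0.14, adjusted *P* = 0.0415). Both wine/European strains exceeded all Malaysian strains in each gene, although the call of *CIT2* was marginal, its adjusted *P* being 0.0503 without the filter on low values and 0.0595 without the mean-variance trend. In *MDH2*, *ICL2* and *IDP2* the populations were also separated, and the wine/European strains differed 2-fold or more from each other. *MDH2* (YOL126C), the cytosolic malate dehydrogenase, was at 4243, 1883 and 3754 in Malaysian strains, 10346 in BC187 and 5015 in RM11-1 (-1.21, SE 0.46, adjusted *P* = 0.148). *ICL2* (YPR006C), a mitochondrial relative of *ICL1* that acts on 2-methylisocitrate, was at 206, 162 and 216, at 921 in BC187 and at 224 in RM11-1 (-1.23, SE 0.59, adjusted *P* = 0.227). *IDP2* (YLR174W), the cytosolic NADP-dependent isocitrate dehydrogenase, was at 495, 492 and 472, at 604 in BC187 and at 1363 in RM11-1 (-0.90, SE 0.34, adjusted *P* = 0.15). RM11-1 thus lay near the Malaysian level in *ICL2*, and BC187 did in *IDP2*. *MLS1*, the malate synthase, had overlapping populations (-0.03), and *MDH3*, the peroxisomal malate dehydrogenase, was the exception in sign (0.22, adjusted *P* = 0.171), with 10468 to 10701 in Malaysian strains against 8961 and 9217.

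Of the anaplerotic and NADPH-forming enzymes, *PYC1* passed. It was at 12432, 7176 and 12329 in Malaysian strains and at 4158 and 3136 in BC187 and RM11-1, which gave means of 10646 ± 3005 (SD, n = 3) and 3647 ± 723 (SD, n = 2). Malaysian expression was 2.86-fold higher (log2 difference 1.52, SE 0.29, adjusted *P* = 0.0332), and its lowest value, in UWOPS05.217.3, was still above both wine/European strains. Its paralog *PYC2* (YBR218C) was at 25835, 24452 and 25280 against 32579 and 27923 (-0.26, SE 0.12, adjusted *P* = 0.2). The 2 carboxylases thus had differences of opposite sign, of which that of *PYC2* did not pass. Their coding sequences are 85.1% identical. In the reference genome 3.17% of the 100-base windows of *PYC1* and 3.16% of those of *PYC2* occur more than once, and only reads that mapped uniquely were counted. *IDP1* (-0.08) and *MAE1* (-0.05), the mitochondrial NADP-dependent isocitrate dehydrogenase and malic enzyme, had overlapping populations.

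*CTP1* (YBR291C), the mitochondrial citrate carrier, narrowly missed the threshold. It was at 1362, 1486 and 1319 in Malaysian strains, at 6059 in BC187 and at 2605 in RM11-1. The Malaysian strains lay within a narrow range under both wine/European strains, which differed 2-fold or more from each other (log2 difference -1.52, SE 0.35, adjusted *P* = 0.0525). *SFC1*, the succinate-fumarate carrier, had overlapping populations (0.12). In gluconeogenesis and acetate activation, all 3 genes were higher in every Malaysian strain than in either wine/European strain, as were 26.5% of all genes. None of the 3 passed the adjusted threshold. At an unadjusted *P* under 0.05, 1 (*ACS1*) was higher, as were 915 of the 5792 genes tested. *PCK1* (YKR097W), the phosphoenolpyruvate carboxykinase, was at 146, 79 and 105 against 32 and 77 (1.08, SE 0.50, adjusted *P* = 0.209). Its values in UWOPS05.217.3 (79) and RM11-1 (77) were thus nearly equal. *FBP1*, fructose-1,6-bisphosphatase, had a log2 difference of 0.42 (adjusted *P* = 0.209), and *ACS1*, an acetyl-CoA synthetase repressed by glucose, one of 0.59 (adjusted *P* = 0.0757).

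**Figure D1:**
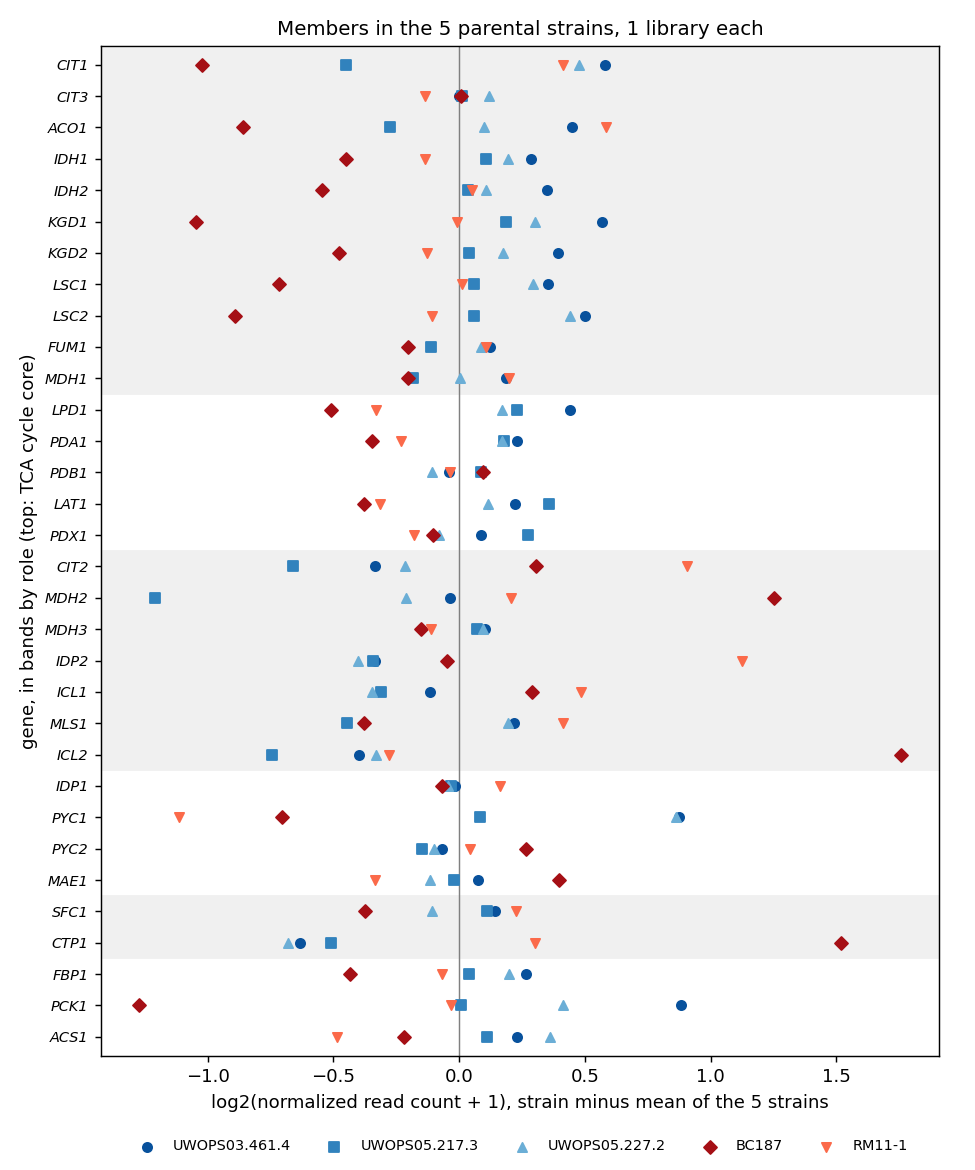
Expression of 32 of the 33 genes in the 5 parental strains (1 library each), as log2(normalized read count + 1) minus the mean of the 5 strains; bands from top to bottom are the TCA cycle core, pyruvate dehydrogenase, glyoxylate and extramitochondrial enzymes, anaplerotic and NADPH-forming enzymes, carriers, and gluconeogenesis with acetate activation. BC187 (dark red diamonds) was the lowest strain for 18 genes, and the wine/European points of *PYC1* lie to the left of all Malaysian points.

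Groups did not overlap in 22 of the 33 genes (66.7%, 14 higher and 8 lower in Malaysian strains), compared with 48.9% of all genes tested, and 15 genes (45.5%) had an unadjusted *P* under 0.05, compared with 30.5%. The 6 calls depended on the strains included. Without UWOPS03.461.4 none of the 33 genes passed (11 at an unadjusted *P* under 0.05), and without UWOPS05.227.2 none passed either (9 at an unadjusted *P* under 0.05), with 107 and 112 genes left over the whole table in place of 630. Without UWOPS05.217.3 there were 2 calls, *PYC1* among them, with 497 over the whole table. Without BC187 there were 5 calls, all lower in Malaysian strains (*CIT2*, *IDP2*, *ICL1* and *CTP1* among them), with 695 over the whole table. Without RM11-1 there were 9, with 1011 over the whole table, of which *IDH1*, *IDH2*, *KGD1*, *LSC1*, *LSC2* and *LPD1* were higher and 3 lower, *ICL2* and *CTP1* among them. With 1 wine/European strain left, that strain is assumed to vary like the Malaysian strains.

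The 2 wine/European strains differed from each other more often in these genes than in the genome at large. With 1 library each there is no test. BC187 and RM11-1 differed 2-fold or more in 8 of the 33 genes (24.2%), compared with 5.96% of all genes. *MDH2*, *ICL2* and *CTP1* were higher in BC187, by 1.04, 2.03 and 1.22 on the log2 scale (9.09% of the 33 genes, against 1.71% of all). *CIT1*, *ACO1*, *KGD1*, *IDP2* and *PCK1* were lower in BC187, with log2 differences, BC187 minus RM11-1, of -1.44, -1.44, -1.04, -1.17 and -1.24 (15.2%, against 4.25% of all). BC187 was the lowest of the 5 parents for 18 of the 33 genes (54.5%, against 35.2% of all genes), and BC187 was below RM11-1 in 22 of them (66.7%, against 58.8%). Within the TCA cycle 10 of 12 genes were lower in BC187 than in RM11-1, with a median log2 difference of -0.50 against -0.08 over all genes. For the Malaysian strains, UWOPS05.217.3 was set against the mean of the other 2, a measure unlike that for the wine/European pair. The spreads of the populations were therefore not compared. UWOPS05.217.3 differed 2-fold or more from the mean of the other two only in *MDH2* (-1.08 on the log2 scale, 3.03% of the 33 genes against 2.61% of all), and it was below both others in 20 of 33 genes (60.6% against 51.6%).

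In the hybrids, where both alleles share a cell, the number of genes that differed depended on the pairing of the alleles, and the TCA genes as a group did not lean to the Malaysian side. Without pairing, none of the 33 genes passed as lower from the Malaysian allele. In that direction 4 had an unadjusted *P* under 0.05, as did 501 of the 5738 genes tested. *ACO1* and *LPD1* had higher expression from the Malaysian allele. These 2 genes (6.06%) compare with 4.71% of the 5738 genes tested when alleles are treated as separate samples, of which 2.07% were higher and 2.63% lower from the Malaysian allele. When the alleles were paired by hybrid, as their shared culture allows, 10 genes passed (30.3%, against 17.9% of all genes): *CIT2*, *ACO1*, *IDH1*, *LPD1* and *CTP1* with the Malaysian allele higher, and 5 with it lower, among them *MDH1*, *MDH2*, *PDB1* and *MAE1*. Each direction thus held 15.2% of the 33 genes, against 9.01% of all genes higher and 8.87% lower. Over the 33 genes, the median of the log2 ratio was -0.01 against 0.00 over all genes, and -0.02 over the 12 TCA genes.

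*ACO1* had the largest allelic ratio in favor of the Malaysian allele. The Malaysian and wine/European alleles were at 35196 and 15447 in YHL058. They were at 43262 and 16780 in YHL063, and YHL065 had 36065 and 17547. The Malaysian allele was thus at least 2-fold higher in each hybrid, whether the other allele came from RM11-1 or BC187. The ratio was 2.29-fold (log2 1.20, SE 0.15, adjusted *P* = 0.0112; paired adjusted *P* = 0.00624).

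The remaining TCA genes had ratios nearer 1. *IDH1* (YNL037C), a subunit of NAD-dependent isocitrate dehydrogenase, was at 3388 and 2631, 3047 and 2223, and 2599 and 2018 for the Malaysian and wine/European alleles of YHL058, YHL063 and YHL065 (log2 ratio 0.39, adjusted *P* = 0.248; paired adjusted *P* = 0.0151). Its partner *IDH2* had a ratio of -0.03, with both signs among the hybrids. *MDH1*, the mitochondrial malate dehydrogenase, had a lower Malaysian allele in the 3 hybrids, with log2 ratios from -0.26 to -0.18 that passed with pairing (adjusted *P* = 0.0489) and not without (0.71). *CIT1* was at 698 and 766, 795 and 866, and 700 and 815 (-0.16, paired adjusted *P* = 0.15), and *KGD1* was at 1056 and 1196, 915 and 938, and 869 and 1046 (-0.16, paired adjusted *P* = 0.186). These 2 genes, whose parental values were far lower in BC187 than in RM11-1, had nearly equal alleles in each hybrid. *LSC2*, with log2 ratios of 0.25 to 0.36, had the Malaysian allele higher in the 3 hybrids without passing (paired adjusted *P* = 0.118), and *CIT3*, *KGD2*, *LSC1* and *FUM1* had mixed signs.

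In pyruvate dehydrogenase, *LPD1* was again higher on the Malaysian side and *PDB1* was lower. In YHL058 the Malaysian and wine/European alleles of *LPD1* were at 4563 and 3052, in YHL063 at 5060 and 3348, and in YHL065 at 4671 and 2885. The alleles did not overlap, and the log2 ratio of 0.62 (SE 0.11, adjusted *P* = 0.0309; paired adjusted *P* = 0.00677) lay beside a parental difference of 0.70. *PDB1* was at 2031 and 2511, 1729 and 2242, and 1643 and 2140 (-0.35, adjusted *P* = 0.216; paired adjusted *P* = 0.0184). *LAT1*, which passed between the parents, was at 4645 and 4091, 4192 and 3457, and 3353 and 3295, a ratio of 0.16 that did not pass (paired adjusted *P* = 0.175). *PDX1* (0.26) had the Malaysian allele higher in the 3 hybrids and *PDA1* (-0.15) had it lower in 2 of them and nearly equal in YHL058, and neither passed.

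Among the glyoxylate and extramitochondrial genes, *CIT2* favored the Malaysian allele, against the direction of the parents. Its alleles were at 279 and 165 (YHL058), 314 and 196 (YHL063), and 383 and 247 (YHL065), again with the Malaysian allele first. Each Malaysian allele exceeded every wine/European allele, with a ratio of 1.61-fold (log2 0.69, SE 0.21, adjusted *P* = 0.148; paired adjusted *P* = 0.0148). *MDH2* kept the parental direction, at 241 and 363, 282 and 716, and 387 and 827 (-1.01, adjusted *P* = 0.196; paired adjusted *P* = 0.0246). *ICL2* was at 26 and 32, 34 and 117, and 25 and 142, the lowest log2 ratio of the 33 genes (-1.50, SE 0.57), and it did not pass in either test (adjusted *P* = 0.243; paired 0.0936). In *ICL2* the alleles were nearly equal in the hybrid with RM11-1 and far apart in both hybrids with BC187. *ICL1* was at 136 and 156, 144 and 146, and 119 and 174 (-0.25, paired adjusted *P* = 0.295), *MLS1* and *MDH3* also had the Malaysian allele lower in the 3 hybrids (-0.43 and -0.20), and *IDP2* had mixed signs (-0.23).

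For the anaplerotic enzymes, *PYC1*, which was 2.86-fold higher in Malaysian parents, was at 792 and 818, 1306 and 1061, and 1104 and 944 in the hybrids in the same order. Its alleles differed by less than the spread between hybrids (0.16, SE 0.21, paired adjusted *P* = 0.277). *PYC2* was at 6485 and 5725, 6689 and 4547, and 7031 and 4749, with the Malaysian allele higher throughout (0.43, adjusted *P* = 0.135; paired adjusted *P* = 0.0505). *MAE1* had log2 ratios of -0.46 to -0.23 and passed with pairing (adjusted *P* = 0.035) and not without (0.577), and *IDP1* had mixed signs. *CTP1* was at 1068 and 914, 1300 and 1040, and 1129 and 936 (0.27, adjusted *P* = 0.327; paired adjusted *P* = 0.0418), with the Malaysian allele higher in each hybrid. *SFC1* was at 63 and 27, 92 and 37, and 54 and 41 (0.96, adjusted *P* = 0.167; paired adjusted *P* = 0.068). *PCK1* was at 34 and 25, 42 and 23, and 33 and 12 (0.89, paired adjusted *P* = 0.104), whereas *FBP1* and *ACS1* had mixed signs.

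**Figure D2:**
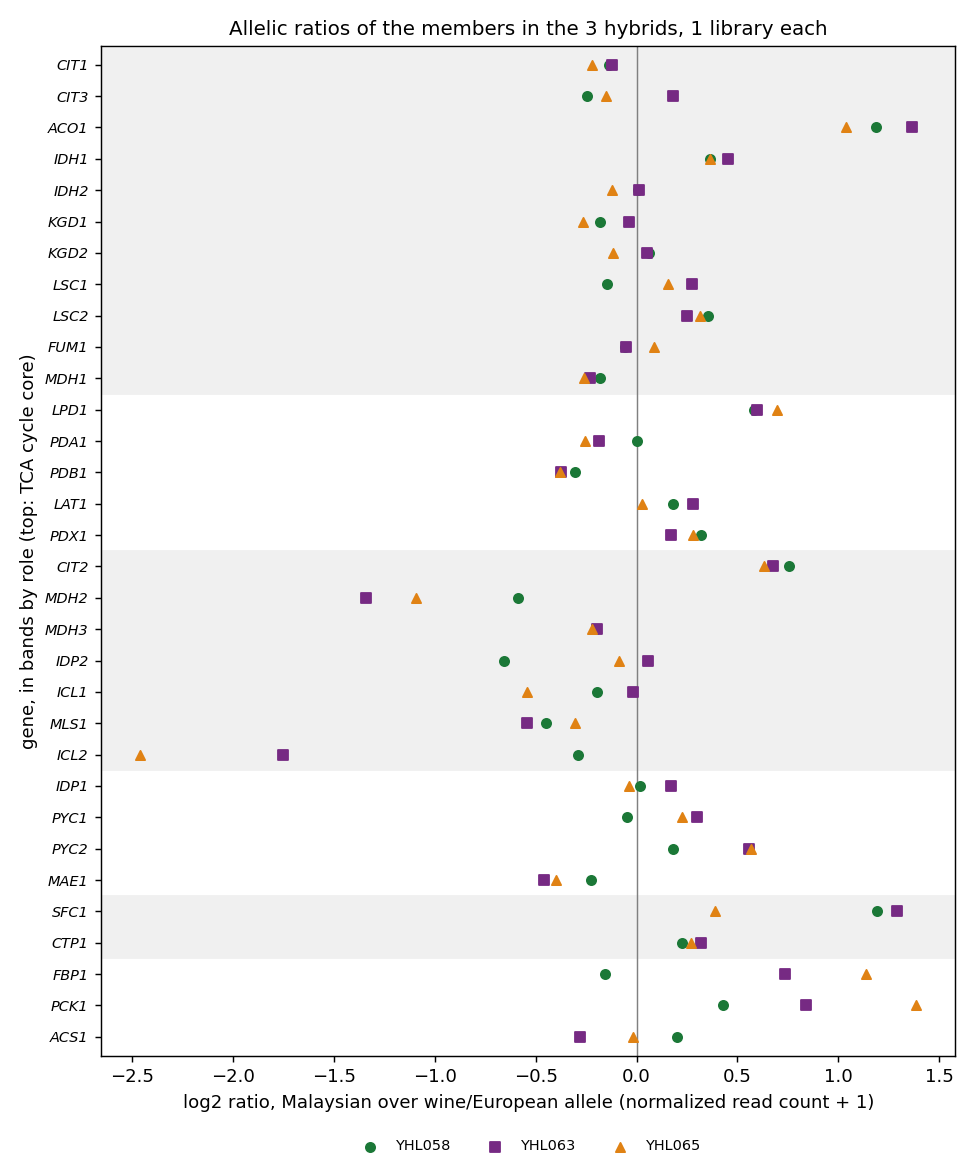
Allelic log2 ratio, Malaysian over wine/European allele, of 32 of the 33 genes in the 3 hybrids (1 library each), in the same order and bands as the parental values. *ACO1* lies between 1.04 and 1.37, while *ICL2* is spread from -2.46 in YHL065 to -0.29 in YHL058.

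The Malaysian allele was higher in the 3 hybrids for 11 genes (33.3%, against 29.3% of all genes) and lower in the 3 for 11 genes (33.3%, against 28.1%), and the alleles did not overlap across hybrids in 10 genes (30.3%, against 23.2%). The calls depended on the hybrids included. Without YHL058 the unpaired test called *ICL2* (log2 ratio -2.11, adjusted *P* = 0.0373), with the Malaysian allele lower, and neither *ACO1* nor *LPD1*. Without YHL063 or YHL065 it called none of the 33 genes, with 2 and 5 at an unadjusted *P* under 0.05, against 8.32% and 13.9% of all genes. The paired test called 9 of the 33 genes without YHL058 and 6 without YHL065, and without YHL063 it called none, with 9 at an unadjusted *P* under 0.05 and 55 genes passing over the whole table in place of 1026. *ACO1* and *LPD1* were called by the paired test without YHL058 and without YHL065.

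Set side by side, the parental and allelic values fell into several kinds. *LPD1* had similar values (0.70 and 0.62), and 10 genes (30.3%, against 25.4% of all genes) had the same direction in every pair of parents and in the 3 hybrids, among them *IDH1*, *LSC2*, *MDH2*, *ICL1*, *LPD1*, *LAT1*, *PDX1*, *ICL2* and *PCK1*. In *PYC1* the parental difference was 1.52 and the allelic ratio 0.16, and in *ACO1* they were 0.23 and 1.20. In *CIT2*, *KGD1*, *MDH3*, *PYC2* and *CTP1* (15.2%, against 5.35% of all genes) every pair of parents differed in one direction and the 3 hybrids in the other. These shares count signs alone, and *KGD1*, *MDH3* and *PYC2* passed in neither comparison. Because the tables were normalized separately, the difference between a parental and an allelic value was not tested.

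**Figure D3:**
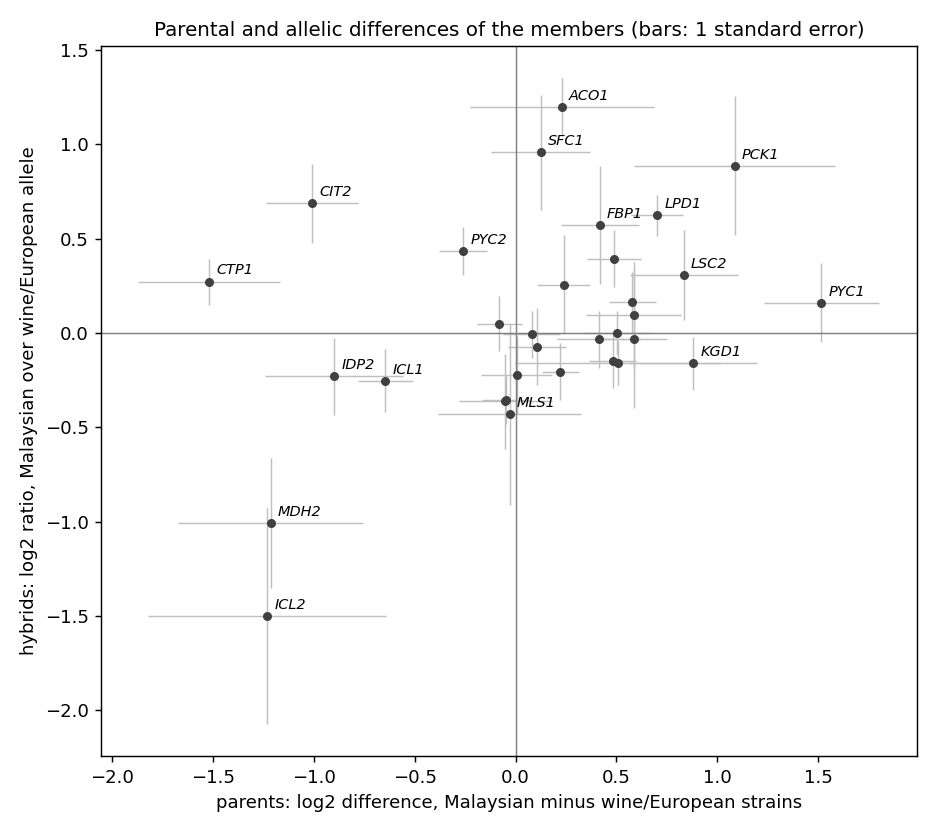
Log2 difference between Malaysian and wine/European parents (horizontal; 3 against 2 strains) and log2 ratio of Malaysian over wine/European alleles (vertical; 3 hybrids) for 32 of the 33 genes, with bars of 1 standard error from the unpaired fit. *LPD1* (0.70, 0.62) and *MDH2* (-1.21, -1.01) have the same sign on both axes, *CIT2* (-1.01, 0.69) and *CTP1* (-1.52, 0.27) lie in the upper left, and *PYC1* (1.52, 0.16) lies near the horizontal axis.

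The differences between BC187 and RM11-1 could be followed into YHL063 and YHL058, which share the Malaysian parent UWOPS03.461.4. These are single libraries, so the values are a description. *ICL2*, which was 2.03 higher in BC187 than in RM11-1 on the log2 scale, had a wine/European over Malaysian log2 ratio of 1.75 in YHL063 and 0.29 in YHL058, and of 2.46 in YHL065, the second hybrid with BC187. *MDH2*, 1.04 higher in BC187, had ratios of 1.34 in YHL063, 0.59 in YHL058 and 1.09 in YHL065. Both genes therefore had the larger wine/European ratio in each hybrid with BC187. *CTP1*, 1.22 higher in BC187, had nearly the same ratio in YHL063 (-0.32) as in YHL058 (-0.22). *CIT1*, with a log2 difference of -1.44 between BC187 and RM11-1, had ratios of 0.12 and 0.13, and *KGD1*, with -1.04, had 0.04 and 0.18. *ACO1*, also at -1.44 between the strains, had ratios of -1.37 and -1.19. In *CTP1*, *CIT1*, *KGD1* and *ACO1* the strain difference of the parents was not seen at this size between the wine/European alleles of the hybrids. *IDP2*, at -1.17 between the strains, had ratios of -0.06 in YHL063, 0.66 in YHL058 and 0.09 in YHL065. *PCK1*, at -1.24 and with low values in the hybrids, had -0.84, -0.43 and -1.39 in the same order. Both *IDP2* and *PCK1* thus had the lower wine/European ratio in each hybrid with BC187.

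**Figure D4:**
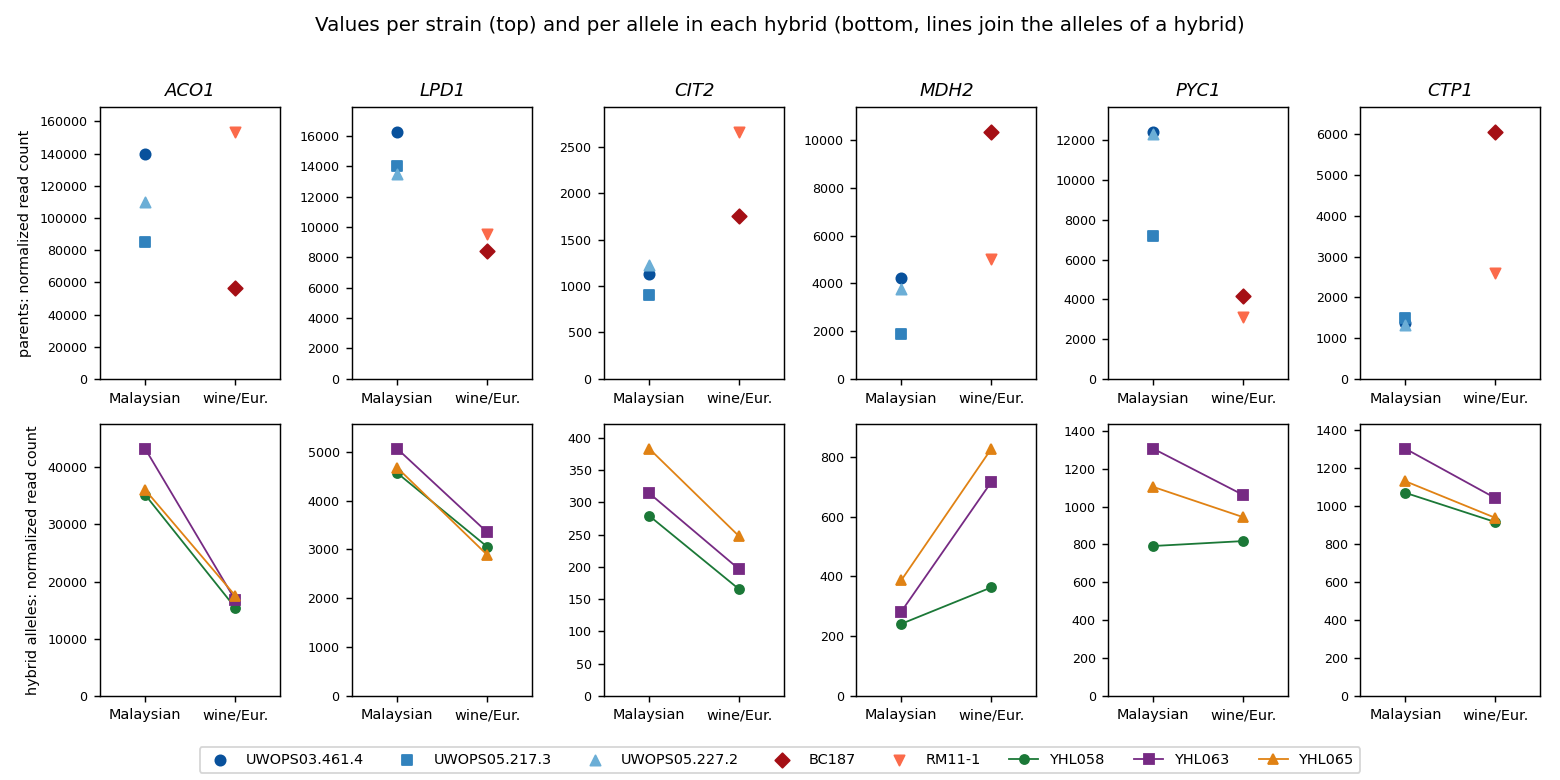
Normalized read counts of 6 genes in the parents (top row, 1 point per strain) and of each allele in the hybrids (bottom row, lines join the 2 alleles of a hybrid); each panel has its own linear axis from 0. For *CIT2* and *CTP1* the wine/European strains are higher in the top row and the Malaysian alleles are higher in the bottom row, and for *PYC1* the Malaysian strains are higher in the top row while the alleles of YHL058 are nearly equal at 792 and 818.

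A further 8 lists with 58 genes of the same pathways and their regulators were read in the same fits. In the parents 2 of the 58 genes passed as higher in Malaysian strains and 1 as lower, against 5.06% and 5.82% of all genes. At an unadjusted *P* under 0.05 (30.5% of all genes in either direction), 12 of the 58 were higher and 6 lower. Over the 5792 genes tested, 915 were higher and 850 lower. *HAP5*, a subunit of the CCAAT-binding complex, was at 1838, 1937 and 1930 against 995 and 1194 in BC187 and RM11-1 (log2 difference 0.80, SE 0.12, adjusted *P* = 0.0183). *SUC2*, the glucose-repressed invertase, was at 10580, 8719 and 10817 against 2003 and 3710 (1.87, SE 0.28, adjusted *P* = 0.0174). *CAT8*, the activator of gluconeogenic genes, was at 20, 29 and 20 against 137 and 724 (-3.74, SE 0.74, adjusted *P* = 0.0359). Beside the low *CAT8* of Malaysian strains, *PCK1*, *FBP1* and *ACS1* were higher there (1.08, 0.42 and 0.59), and none of them passed. Of the 7 glyoxylate and extramitochondrial genes, 6 had a log2 difference below 0. *ICL1* (-0.65) was among them, as were *MDH2* (-1.21) and *IDP2* (-0.90), which did not pass. *MLS1* was near 0 (-0.03) with overlapping groups, and *MDH3* was above 0 (0.22). A relation of these values to *CAT8* was not tested. The lists of other TCA and glyoxylate enzymes (8 genes), pyruvate dehydrogenase regulation and lipoylation (10), the retrograde pathway (5), other mitochondrial carriers (5) and acetyl-CoA supply (7) had no gene past the adjusted threshold in the parents, with 1, 2, 0, 3 and 2 genes at an unadjusted *P* under 0.05. *RTG1*, *RTG2* and *RTG3* had log2 differences of 0.07, -0.02 and 0.25.

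Between alleles, the unpaired test called 2 of the 57 genes tested from these lists higher and 2 lower, against 2.07% and 2.63% of all genes, and the paired test 6 and 10, against 9.01% and 8.87%. *SUC2* was higher from the Malaysian allele, at 3040 and 660, 2621 and 908, and 3382 and 1090 in the hybrids in the order above (1.79, SE 0.21, adjusted *P* = 0.00778), as it was in the parents. *SIP4*, an activator related in function to *CAT8*, was at 42 and 5, 98 and 11, and 95 and 16 (2.79, SE 0.53, adjusted *P* = 0.0411). *ADR1*, an activator of glucose-repressed genes, was lower from the Malaysian allele, at 24 and 142, 45 and 220, and 33 and 162 (-2.35, SE 0.30, adjusted *P* = 0.0118). *SDH3*, a membrane subunit of succinate dehydrogenase, was at 2363 and 4235, 1990 and 3681, and 1586 and 3226 (-0.92, SE 0.18, adjusted *P* = 0.0449). With pairing, *SDH1* (-0.92, adjusted *P* = 0.0122) and *KGD4* (-0.47, adjusted *P* = 0.00965), a subunit of alpha-ketoglutarate dehydrogenase, were also lower from the Malaysian allele, as was *CAT8* (-2.76, adjusted *P* = 0.0374). Lower with pairing were further *RTG2* (-0.39, adjusted *P* = 0.0369), the repressor gene *MIG1* (-0.53, adjusted *P* = 0.0395), *RDS2* (-0.69, adjusted *P* = 0.0382) and *ACS2* (-0.56, adjusted *P* = 0.0246), the acetyl-CoA synthetase used on glucose. Higher with pairing, beside *SUC2* and *SIP4*, were the mitochondrial aldehyde dehydrogenase gene *ALD4* (0.78, adjusted *P* = 0.007), the oxodicarboxylate carrier gene *ODC2* (0.63, adjusted *P* = 0.00895), *DLD3* (0.41, adjusted *P* = 0.0156), which responds to the retrograde pathway, and *ADH2* (0.63, adjusted *P* = 0.0202), the glucose-repressed alcohol dehydrogenase. *HAP4*, the activating subunit of the Hap complex, had a log2 difference of 0.59 in the parents that did not pass (adjusted *P* = 0.129) and a ratio of -0.48 between alleles (adjusted *P* = 0.0565; paired adjusted *P* = 0.0194). Of the 8 genes of the list of other TCA and glyoxylate enzymes, 3 thus passed with pairing, all lower from the Malaysian allele. Of the 12 TCA genes described before, 2 passed with pairing as higher (*ACO1* and *IDH1*) and 2 as lower, *MDH1* among them.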

How the data were processed

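According to the study's methods, reads were mapped with Bowtie (version 0.12.7 in the submitters' processing notes) to strain genomes amended with SNPs, keeping reads that mapped uniquely without mismatches, whereas for hybrids the reference combined the genomes of the 2 parents. The authors summed reads per gene and normalized them with EDASeq (upper quartile between libraries, loess on GC content within them), so the deposited values are a score on the scale of read counts, rounded to whole numbers. The deposited fold changes and *P*-values of the authors' DESeq comparisons were not used.

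Genes whose mean reached 10 were tested on log2(value + 1), computed here from the deposited values, with limma 3.58.1 (lmFit, eBayes with trend) in R 4.3.3, with Benjamini-Hochberg adjustment over all genes and a threshold of 0.05: 3 Malaysian against 2 wine/European parents, and 3 Malaysian against 3 wine/European alleles. Fold changes are on the log2(value + 1) scale. As an alternative, alleles were paired by hybrid, since both come from 1 culture; deviations of the 2 alleles of a hybrid from their group means correlated at 0.67, 0.54 and 0.48 in YHL058, YHL063 and YHL065 (across 5738 genes, which are not independent replicates). Normalized values fit no count model, so no count test was run. *P*-values measure the spread between 1 library per strain.

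The members and lists were chosen with earlier results of these data known. Values are given for genes past the threshold in either fit, for the 3 largest rises and falls with 1 direction in every pair or hybrid, and for their paralogs; genes of other lists are named where they pass, and *RTG1*, *RTG2*, *RTG3* and *HAP4* were named after their values were seen. For 1 of the 33 genes values are not reported here; counts include it, and figures leave it out. Sequences, motifs and identities came from the S288C assembly R64 (5792 of 5797 identifiers matched; Biopython 1.88); the deposited tables hold no coordinates. The test was tried on simulated data. Alternatives were other pseudocounts (0.5 and 10), filters (none and 100), rescaling by median ratio or quantiles, no trend, and each library left out.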

Additional observations from a re-analysis of the deposited data

Results flagged for a closer look

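In 5 genes every pair of parents lay on one side and the 3 hybrids on the other, and the difference between the 2 comparisons was not tested. *CIT2* had a log2 difference of -1.01 between Malaysian and wine/European parents and a log2 ratio of 0.69 between Malaysian and wine/European alleles. *CTP1* had -1.52 and 0.27, *KGD1* had 0.88 and -0.16, *MDH3* had 0.22 and -0.20, and *PYC2* had -0.26 and 0.43. *KGD1*, *MDH3* and *PYC2* passed in neither comparison, with or without pairing (paired adjusted *P* = 0.186, 0.0532 and 0.0505 in limma). *CIT2* passed in the parents and, with pairing, between alleles, and *CTP1* only between alleles with pairing. Counted by sign alone, 5.35% of all genes had such a pattern, and the 5 genes are 15.2% of the 33.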

How the results depend on the processing

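Pseudocounts, filters, rescaling and the trend moved the count of calls by less than 1.5 times in both comparisons. Pairing the alleles by hybrid (the replicate block) raised the calls between alleles from 270 to 1026 genes and from 2 to 10 of the 33. With each strain left out in turn, parental calls ranged from 107 to 1011 genes and from 0 to 9 of the 33. With each hybrid left out, allelic calls ranged from 12 to 155 genes and from 0 to 1 of the 33 unpaired, and, in an alternative added after seeing the data, from 55 (without YHL063) to 710 genes, with 675 without YHL058, and from 0 to 9 of the 33, with 6 without YHL065, when paired. Directions turned under these alternatives only in genes that did not pass in the same comparison. In the parents *MDH1* was at -0.020 after median-ratio and -0.029 after quantile rescaling, and *MLS1* at 0.16 after quantile rescaling. With a strain left out, log2 differences ranged as follows: *CIT1* from -0.21 to 1.22, *ACO1* from -0.49 to 0.95, *FUM1* from -0.073 to 0.23, *MDH1* from -0.20 to 0.21, *MLS1* from -0.43 to 0.37, *PDB1* from -0.12 to 0.017, *MAE1* from -0.42 to 0.32, *SFC1* from -0.18 to 0.42, and *IDP1* from -0.20 to 0.035. With a hybrid left out, log2 ratios ranged from -0.20 to 0.014 for *CIT3*, -0.057 to 0.010 for *IDH2*, -0.033 to 0.058 for *KGD2*, -0.055 to 0.016 for *FUM1*, -0.011 to 0.095 for *IDP1* and -0.15 to 0.089 for *ACS1*. After quantile rescaling *PDA1* (adjusted *P* = 0.0241) and *FBP1* (adjusted *P* = 0.0401) also passed in limma, both higher in Malaysian strains. Normalized values do not carry depth, so the counting error of low values such as *ICL2*, *SFC1* and *PCK1* in the hybrids was not computed; YHL065 had the fewest uniquely mapped reads.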
